A study of Mus musculus with 8 samples.

Results

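The genes of phosphatidylcholine (PC) and phosphatidylethanolamine (PE) synthesis were examined in livers with and without AGPAT3, an enzyme that attaches docosahexaenoic acid to the lysophosphatidic acid from which phospholipids are built. The 10 genes *Chka*, *Chkb*, *Pcyt1a*, *Pcyt2*, *Cept1*, *Chpt1*, *Pemt*, *Etnk1*, *Etnk2* and *Pisd* were chosen by their known enzymatic roles. The choice used no measured value as a criterion, but earlier results of these data were known when it was made. The genes are part of 22911 that could be named on the array, of which 14067 were tested. The mice were C57BL/6 males of 10 weeks, with 4 labeled *Agpat3* WT and 4 labeled *Agpat3* KO, and the liver RNA of each was read on its own one-color Agilent array. The KO mice lack the gene in the whole body, so the hepatocytes and every other cell of the liver carried the deletion, and the RNA is that of whole liver tissue, in which fewer cells of a type and less RNA per cell cannot be told apart.

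PC and PE are the most abundant membrane phospholipids, and the liver also exports PC in bile and in lipoproteins. Choline and ethanolamine are first phosphorylated by kinases, then activated with CTP by a cytidylyl transferase, the slow step of each branch, and finally joined to diacylglycerol. Hepatocytes have a further route to PC, the stepwise methylation of PE by PEMT with S-adenosylmethionine as the methyl donor, and mitochondria make PE by decarboxylation of phosphatidylserine (PS).

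None of the 10 genes was called in *Agpat3* KO liver, where 1.76% of all genes tested were called, so that a count of 0 does not set these genes apart. For each of them the 95% confidence interval of the change lay within 1.5-fold in both directions, as it did for 76.2% of all genes, and that of *Etnk2* went beyond this range in 8 of 18 alternative fits. Livers separated by genotype for 1 of the 10 genes, close to the 9.72% of all genes. It was *Pcyt2*, the cytidylyl transferase of the PE branch, with a signal 1.14-fold higher in KO than in WT liver (95% interval 1.04 to 1.26, n = 4 mice each), which did not pass the adjusted threshold. Of 49 genes tested around the pathway, 3 were called, against 1.76% of all genes. These were *Nnmt*, *Etnppl* and *Gdpd1*, all lower in KO liver, and each was called in no more than 3 of 8 fits that left out 1 array. *Pnpla7*, *Bhmt2* and *Slc44a1* had an adjusted p under 0.2 and a higher signal in KO liver, but by less than 1.5-fold, and were not called. With no minimum fold, 6 of the 49 had a limma adjusted p under 0.2, against 4.33% of all genes.

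Values are log2 processed signals minus the log2 of their 75th percentile on the same array, so that 0 is the signal of that percentile and 1 unit is a doubling. They compare mice for 1 probe, and not 1 probe with another. Calls needed a change of more than 1.5-fold together with a limma adjusted p below 0.2, and a gene was read from its brightest probe. In all, 484 of 29069 probes tested (1.67%) and 248 of 14067 genes (1.76%) were called, 142 genes (1.01%) higher and 106 (0.754%) lower. The 8 arrays shared 1 slide, where row 1 held the WT and row 2 the KO livers, and an effect of the row cannot be told apart from that of genotype. Correlations between arrays were between 0.985 and 0.996, no array stood apart in the number of probes above background (29888 to 31892), and *Agpat3* itself was lower in KO liver by 6.12 on the log2 scale (log2 fold change -6.12, standard error 0.14, limma adjusted p = 4.46e-07). The defining markers of hepatocytes (*Alb*), Kupffer cells (*Clec4f*), stellate cells (*Lrat*), endothelial cells (*Stab2*) and cholangiocytes (*Krt19*) passed the background on each of the 8 arrays. Of the other cholangiocyte markers, *Krt7*, *Epcam* and *Cftr* did not, so that 3 of 6 were tested. Of the markers tested, 0 of 9 of hepatocytes, 0 of 9 of stellate cells, 0 of 8 of endothelial cells and 0 of 3 of cholangiocytes were called by limma, with 1, 2, 1 and 1 of them at an unadjusted p under 0.05, and 1 of 8 of Kupffer cells was lower (*Marco*, log2 fold change -1.22, limma adjusted p = 0.0983).

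All 17 probes of the 10 genes passed the background on each of the 8 arrays, so none entered the test through 1 genotype alone. *Chkb*, *Pcyt1a*, *Pcyt2* and *Cept1* had 1 probe each, 5 genes had 2, and *Chka* had 3. At the threshold above, limma called 0 of the 17 probes, and the methods' t-test at the same thresholds called none of the 10 genes with or without adjustment. At an unadjusted p under 0.05, 2 of the 10 genes passed (*Pcyt2* and *Pisd*), against 14.0% of all genes tested. At an adjusted p under 0.2 with no minimum fold, 0 of the 10 passed, against 4.33% of all genes. The 95% interval lay within 1.5-fold for 10 of 10 genes read by their brightest probe, against 76.2% of all genes, and for 15 of 17 probes, against 74.0% of all probes. The median log2 fold change over the 10 genes was 0.08, and 7 of the 10 were above 0, where the median of all genes tested was -0.03 and 42.0% were above 0.

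**Figure D1:**
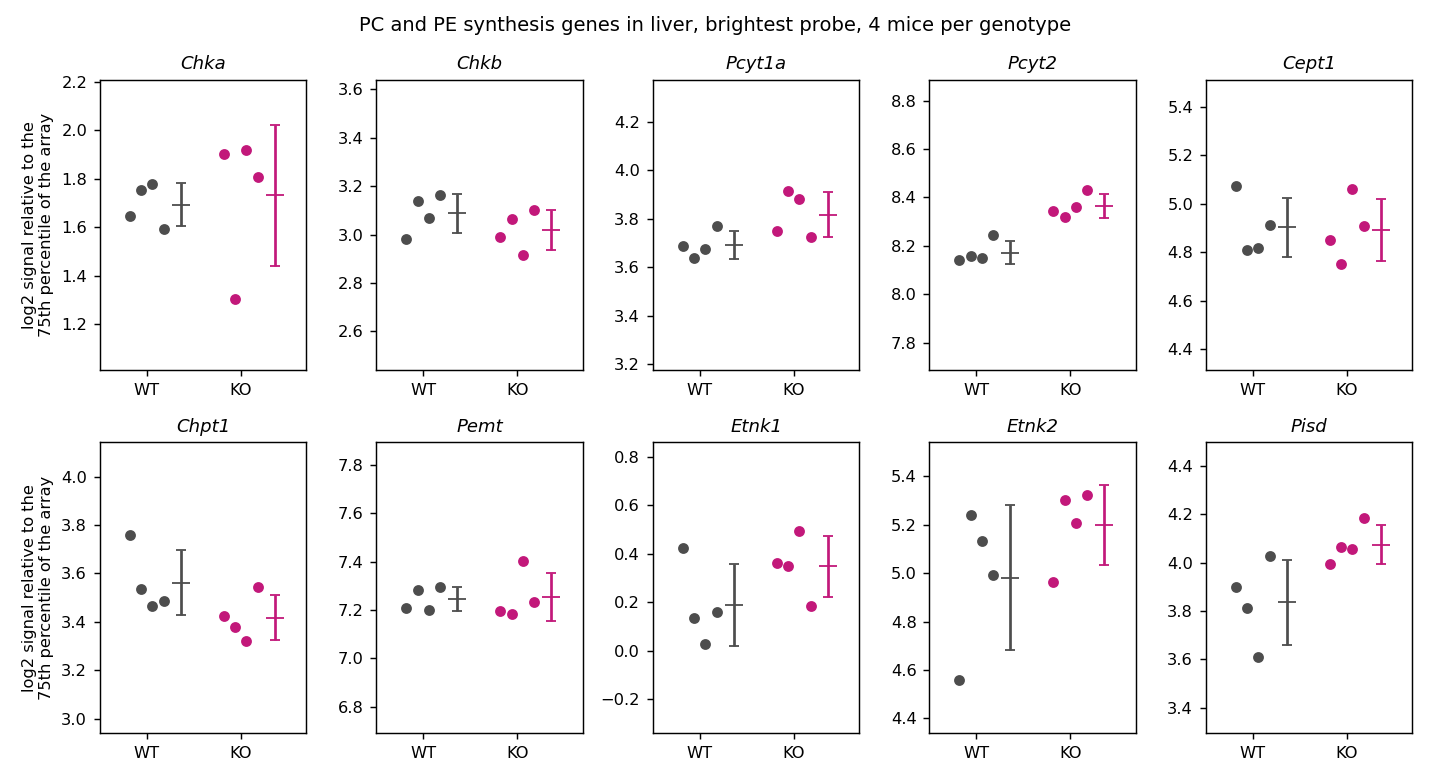
Log2 signal minus that of the array's 75th percentile (vertical axis, a range of 1.2 in every panel) of the brightest probe of each PC and PE synthesis gene in 4 WT (gray) and 4 KO (magenta) livers. Points are mice, and the bar beside them is the mean with the SD. The genotypes overlap in 9 of the 10 panels, and *Pcyt2* is the exception.

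The kinases CHKA and CHKB phosphorylate choline and, less readily, ethanolamine. The brightest probe of *Chka* gave 1.65, 1.76, 1.78 and 1.59 in the WT livers and 1.90, 1.30, 1.92 and 1.81 in the KO livers. The second KO liver was the lowest of all 8 and the other KO livers were the highest, so the genotypes overlapped and the spread was wider in KO (SD 0.29, n = 4) than in WT (SD 0.09, n = 4), a difference in spread that was not tested. Its log2 fold change was 0.04 (standard error 0.14, 95% interval -0.28 to 0.36, limma adjusted p = 0.930). The 2 dimmer probes of *Chka* gave -0.01 (95% interval -0.34 to 0.32) and 0.26 (95% interval -0.08 to 0.60, limma adjusted p = 0.514), the last of which does not exclude a change of 1.5-fold. *Chkb* gave 2.98, 3.14, 3.07 and 3.16 in WT and 2.99, 3.06, 2.92 and 3.10 in KO, and the log2 fold change was -0.07 (standard error 0.07, 95% interval -0.24 to 0.10, limma adjusted p = 0.739). The *Chkb* values of both genotypes thus lay in nearly the same range.

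ETNK1 and ETNK2 are kinases for ethanolamine, and ETNK2 is the form known from the liver. *Etnk1* gave 0.43, 0.14, 0.03 and 0.16 in WT and 0.36, 0.35, 0.49 and 0.18 in KO, and the first WT liver lay among the KO livers. Its log2 fold change was 0.16 (standard error 0.11, 95% interval -0.08 to 0.40, limma adjusted p = 0.564), and its dimmer probe gave 0.25 (95% interval -0.06 to 0.56). *Etnk2* gave 4.56, 5.24, 5.13 and 4.99 in WT and 4.96, 5.30, 5.21 and 5.32 in KO. The first WT liver was the lowest in both probes of *Etnk2*. The log2 fold change was 0.22 (standard error 0.15, 95% interval -0.14 to 0.57, limma adjusted p = 0.600), and without the first WT liver it was 0.08. The second probe of *Etnk2* was the noisiest of the 17, with a pooled SD of 0.42, which 8.7% of the tested probes exceeded, and a log2 fold change of 0.24 (95% interval -0.35 to 0.83).

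The cytidylyl transferases set the pace of each branch. PCYT1A activates phosphocholine, and its gene gave 3.69, 3.64, 3.68 and 3.77 in WT and 3.75, 3.91, 3.88 and 3.72 in KO liver. The genotypes overlapped, since the highest WT liver exceeded the lowest pair of KO livers. The log2 fold change was 0.12 (standard error 0.07, 95% interval -0.04 to 0.29, limma adjusted p = 0.513, exact permutation test, two-sided, p = 0.0857). *Pcyt1b*, the gene of the second form of this enzyme, passed the background on 0 WT arrays and 1 KO array, and was not tested.

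PCYT2 activates phosphoethanolamine. *Pcyt2* gave 8.14, 8.16, 8.15 and 8.24 in WT liver and 8.34, 8.32, 8.36 and 8.43 in KO liver. Every KO liver lay above every WT liver, as in 1368 of all genes tested. The probe was one of the least variable on the array, with a pooled SD of 0.049, and 97.7% of the tested probes varied more. The log2 fold change was 0.19 (standard error 0.06, 95% interval 0.05 to 0.33), and the exact permutation test (two-sided) gave p = 0.0286, which no split of 8 mice into equal groups can go below. The limma adjusted p was 0.245, with an unadjusted p of 0.0141. It was under 0.2 with quantile normalization (0.134) and with the trend and robust options of eBayes (0.0883), and the change stayed under 1.5-fold in both.

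**Figure D2:**
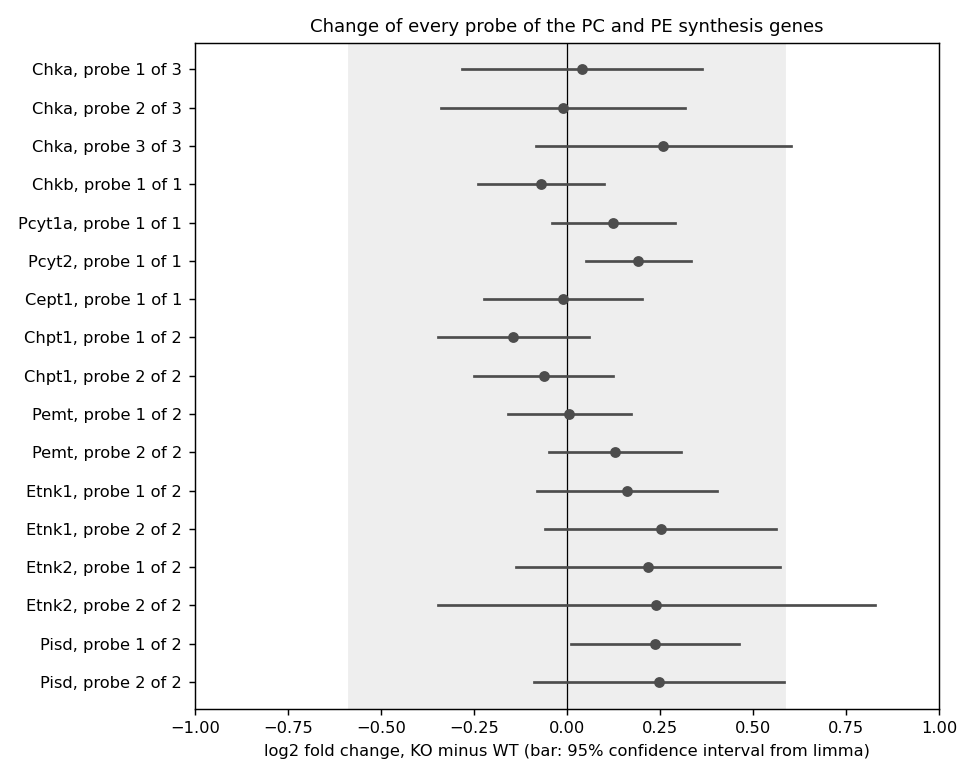
Log2 fold change, KO minus WT (horizontal axis), of all 17 probes of the PC and PE synthesis genes, with the 95% confidence interval of limma as a bar. Probes of a gene are ordered by brightness, and the gray band spans a change of 1.5-fold in either direction. Of the 17 bars, 15 lie inside the band, and the third probe of *Chka* and the second of *Etnk2* reach beyond it.

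CEPT1 and CHPT1 join the activated head group to diacylglycerol, CEPT1 with choline or ethanolamine and CHPT1 with choline. *Cept1* gave 5.07, 4.81, 4.82 and 4.91 in WT and 4.85, 4.75, 5.06 and 4.91 in KO, and the ranges of the genotypes almost coincided. Its log2 fold change was -0.01 (standard error 0.09, 95% interval -0.22 to 0.20, limma adjusted p = 0.976). *Chpt1* gave 3.76, 3.53, 3.47 and 3.49 in WT and 3.42, 3.38, 3.32 and 3.54 in KO. Of the KO livers 3 lay below all WT livers and the last lay among them. The log2 fold change was -0.14 (standard error 0.09, 95% interval -0.35 to 0.06, limma adjusted p = 0.537), and that of the dimmer probe was -0.06 (95% interval -0.25 to 0.12).

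PEMT makes PC from PE in hepatocytes. The brightest probe of *Pemt* gave 7.21, 7.28, 7.20 and 7.29 in WT and 7.20, 7.18, 7.40 and 7.23 in KO, so that the KO range enclosed the WT range. Its log2 fold change was 0.01 (standard error 0.07, 95% interval -0.16 to 0.17, limma adjusted p = 0.981). The dimmer probe gave 0.13 (95% interval -0.05 to 0.31, limma adjusted p = 0.530). Both *Pemt* probes ordered the mice of a genotype in nearly the same way, with a correlation of 0.961 between their deviations from the genotype means over the 8 mice, which share arrays and RNA.

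PISD decarboxylates PS to PE in mitochondria. *Pisd* gave 3.90, 3.81, 3.61 and 4.03 in WT and 3.99, 4.07, 4.05 and 4.18 in KO, where the fourth WT liver exceeded the first KO liver and the third WT liver was the lowest of all. The log2 fold change was 0.24 (standard error 0.10, 95% interval 0.01 to 0.46), with an unadjusted p of 0.0413 and an adjusted p of 0.353 from limma, and an exact permutation p of 0.0571 (two-sided). The dimmer probe gave 0.25 (95% interval -0.09 to 0.58), with deviations that correlated at 0.852 with those of the first over the 8 mice. The mouse genome holds related copies of *Pisd* annotated as pseudogenes, and RNA of a related copy may bind the same probes, which was not tested. Of these copies, looked up after the *Pisd* values were seen, *Pisd-ps1* had a log2 fold change of 0.11 (limma adjusted p = 0.718), and the brighter probe of *Pisd-ps3* had 0.52 (95% interval -0.12 to 1.16, limma adjusted p = 0.480). The dimmer probe of *Pisd-ps3* had 0.35 (95% interval -0.003 to 0.71, limma adjusted p = 0.380). *Pisd-ps2* was well above background on 2 WT arrays and on no KO array. The third WT liver was also the lowest of all 8 for *Pisd-ps1* and for both probes of *Pisd-ps3*.

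Promoter windows of 250 bases before to 50 after each start, from RefSeq (GRCm38.p6), were searched on both strands for short motifs. The motifs were those of the sterol regulatory element-binding protein (SREBP), the lipid regulator of interest in this study, and of its usual partners NF-Y and Sp1. The table held 9 of the 10 genes, in 15 windows, and not *Pcyt2*. The SREBP letters TCACNCCAC were found in 1 of the 9 genes, against 1.44% of all genes in the table. This was *Pcyt1a*, at chr16:32430805-32430813. The 250 bases upstream of its first start, chr16:32430671-32430920 on the + strand, are shown with the match in capitals because it was the one match among the 9 genes.
Pcyt1a: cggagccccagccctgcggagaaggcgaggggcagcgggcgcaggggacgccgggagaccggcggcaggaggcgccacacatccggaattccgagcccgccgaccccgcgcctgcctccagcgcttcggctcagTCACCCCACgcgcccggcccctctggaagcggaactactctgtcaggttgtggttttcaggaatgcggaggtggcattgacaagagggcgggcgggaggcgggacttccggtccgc
The NF-Y letters CCAAT were in windows of 6 of the 9 genes, against 41.06% of all genes, and the Sp1 letters GGGCGG in windows of 8 of 9, against 38.2%. The comparison is with all 27025 genes in the table, expressed in liver or not and not matched for base composition. A gene can have several windows, which raises a count by gene. Counted by window, the NF-Y letters were in 6 of 15, against 37.41% of all windows, and the Sp1 letters in 10 of 15, against 35.66%. The SREBP letters were in 2 of 15 windows, against 1.24%, and both windows hold the same match of *Pcyt1a*. These matches are letters in a window, not binding sites, and *Pcyt1a* differed between genotypes by the 0.12 on the log2 scale given above.

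Around these 10 genes, 57 further genes of 7 groups were read, of which 49 were tested. Of these, 3 were called lower and 0 higher by limma, 7 had an unadjusted p under 0.05, and the methods' t-test at the same fold and an unadjusted p under 0.2 gave 3 lower and 0 higher. Over all genes tested, limma called 1.76%, and 14.0% had an unadjusted p under 0.05 from limma. The median log2 fold change over the 49 was 0.01. The interval lay within 1.5-fold for 42 of them, against 76.2% of all genes.

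**Figure D3:**
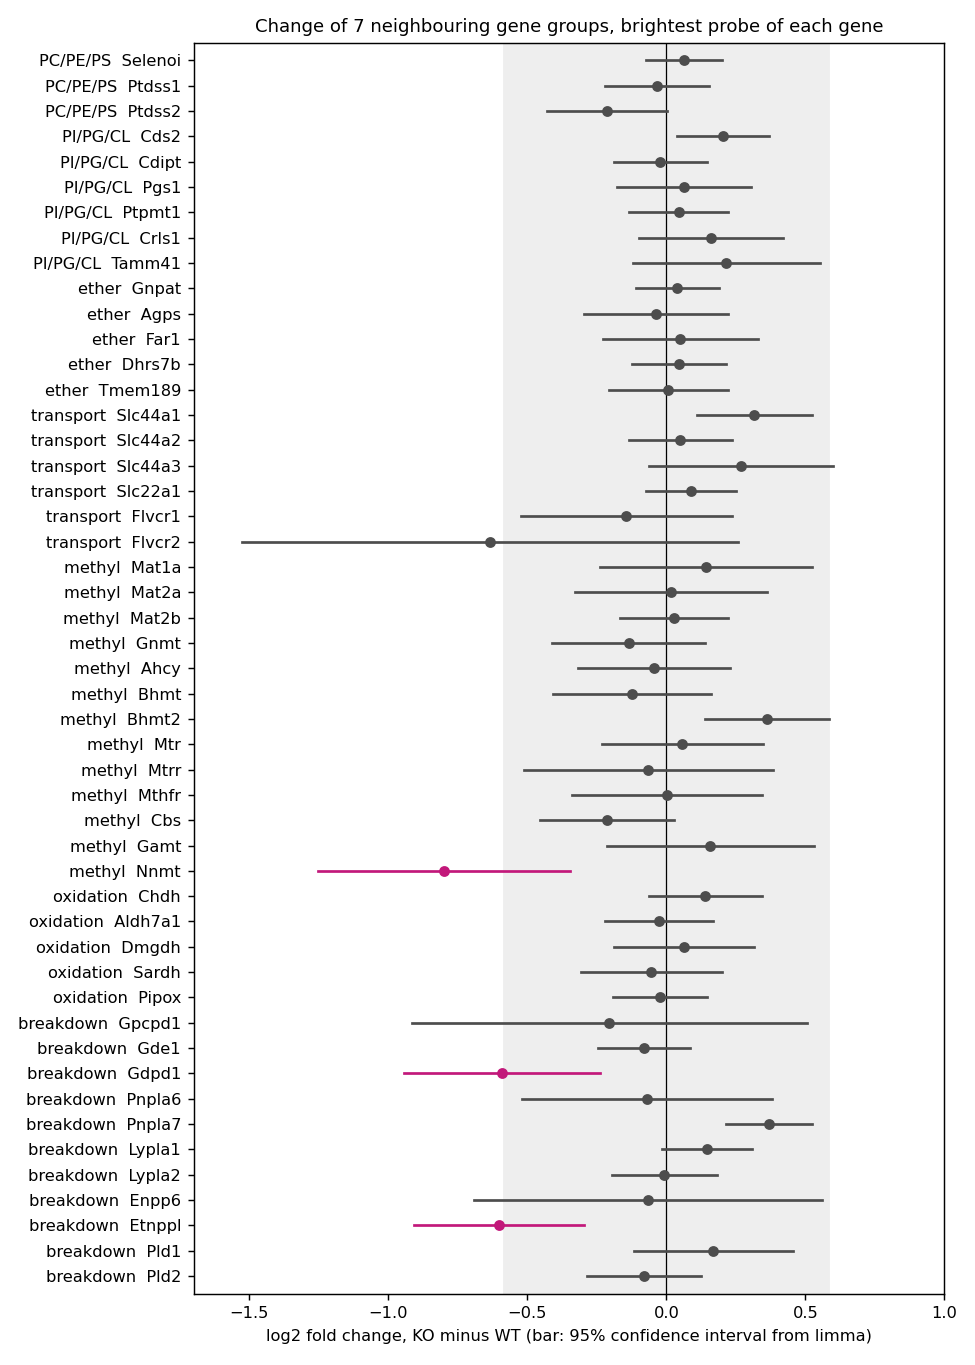
Log2 fold change, KO minus WT (horizontal axis), of the brightest probe of the 49 tested genes in 7 groups around PC and PE synthesis, with the 95% confidence interval of limma. The group stands before each symbol (PC/PE/PS, other synthesis enzymes; PI/PG/CL, synthesis of phosphatidylinositol, phosphatidylglycerol and cardiolipin; ether, ether phospholipids; transport, transporters; methyl, methionine cycle; oxidation, choline oxidation; breakdown, head group breakdown). The gray band spans 1.5-fold, and the 3 genes called lower, *Nnmt*, *Gdpd1* and *Etnppl*, are in magenta.

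Among the other synthesis enzymes of PC, PE and PS, 0 of 3 tested genes were called by limma, with 0 at an unadjusted p under 0.05. *Ptdss2*, which makes PS from PE, had a log2 fold change of -0.21 (95% interval -0.43 to 0.00, limma adjusted p = 0.380), and *Selenoi*, an ethanolamine phosphotransferase, one of 0.06 (95% interval -0.07 to 0.20). Of the genes of phosphatidylinositol, phosphatidylglycerol and cardiolipin synthesis, 0 of 6 were called, with 1 at an unadjusted p under 0.05. This was *Cds2*, which makes CDP-diacylglycerol, with 5.26, 5.34, 5.46 and 5.29 in WT and 5.47, 5.51, 5.63 and 5.56 in KO. Every KO liver lay above every WT liver, by a log2 fold change of 0.20 (95% interval 0.04 to 0.37, limma adjusted p = 0.280). The dimmer probes of *Cds2* gave 0.09 and 0.38, with limma adjusted p of 0.70 and 0.61, and the genotypes overlapped in both. *Tamm41*, a CDP-diacylglycerol synthase of mitochondria, had a log2 fold change of 0.22 (95% interval -0.12 to 0.55). In ether phospholipid synthesis 0 of 5 genes were called, with 0 at an unadjusted p under 0.05, and the log2 fold changes lay between -0.04 and 0.05.

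Of the transporters of choline and ethanolamine, 0 of 6 tested genes were called, with 1 at an unadjusted p under 0.05. It was *Slc44a1*, a choline transporter, with -0.22, -0.18, -0.43 and -0.46 in WT and -0.01, -0.02, -0.11 and 0.11 in KO. The genotypes were separated, and the log2 fold change was 0.32 (standard error 0.09, 95% interval 0.11 to 0.52, limma adjusted p = 0.193), a fold of 1.25. Its other probes gave 0.23 and 0.20, with limma adjusted p of 0.418 and 0.546. *Flvcr2*, also a choline transporter, varied widely between mice of a genotype (SD 0.60 in WT and 0.68 in KO, n = 4 each), and its log2 change was -0.63 (95% interval -1.52 to 0.26, limma adjusted p = 0.537).

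In the methionine cycle and methyl supply, which feeds S-adenosylmethionine to PEMT, 1 of 13 genes was called, lower. *Nnmt*, which spends methyl groups of S-adenosylmethionine on nicotinamide, gave 7.09, 7.47, 7.66 and 7.07 in WT and 6.12, 6.61, 6.94 and 6.42 in KO liver. Every KO liver lay below every WT liver, and the log2 fold change was -0.80 (standard error 0.20, 95% interval -1.25 to -0.35, limma adjusted p = 0.147). Its second probe gave -0.80 as well (limma adjusted p = 0.141). *Bhmt2*, which remethylates homocysteine with S-methylmethionine, gave 5.28, 5.63, 5.44 and 5.49 in WT and 5.76, 5.90, 5.68 and 5.95 in KO. The genotypes were separated, and the log2 fold change was 0.36 (standard error 0.10, 95% interval 0.14 to 0.58, limma adjusted p = 0.175), which is 1.28-fold and under the limit of 1.5. The other 11 genes of the methionine cycle had adjusted p above 0.2, among them *Mat1a*, the liver synthase of S-adenosylmethionine, at 0.14 (95% interval -0.24 to 0.53), and *Gnmt*, the main consumer of it beside PEMT, at -0.14 (95% interval -0.41 to 0.14). In choline oxidation 0 of 5 genes were called, with 0 at an unadjusted p under 0.05, and the largest changes were those of *Chdh*, choline dehydrogenase, at 0.14 (95% interval -0.06 to 0.34), and *Dmgdh*, which demethylates dimethylglycine, at 0.06 (95% interval -0.19 to 0.32).

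In the breakdown of PC and PE and of their head groups, 2 of 11 tested genes were called, both lower. *Etnppl*, which degrades phosphoethanolamine, the substrate of PCYT2, gave 6.03, 6.14, 6.12 and 5.77 in WT and 5.15, 5.29, 5.62 and 5.60 in KO. Every KO liver lay below every WT liver, and the log2 fold change was -0.60 (standard error 0.13, 95% interval -0.91 to -0.30, limma adjusted p = 0.116). The second probe gave -0.68 with a limma adjusted p of 0.206, and the genotypes overlapped in it. *Etnppl* also stands among the genes of periportal hepatocytes, of which it was the 1 called of 8 tested. Of these 8 periportal genes 1 was above 0, against 42.0% of all genes, and the median log2 fold change was -0.11, against -0.03. At an unadjusted p under 0.05 there were 2, *Etnppl* and *Cyp2f2* (log2 fold change -0.32, limma adjusted p = 0.255), against 14.0% of all genes. Of the genes of pericentral hepatocytes 0 of 8 tested were called and 2 of 8 were above 0, with a median of -0.14 and 1 at an unadjusted p under 0.05. The part of lobular zones in the change of *Etnppl* was not tested.

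*Gdpd1*, a lysophospholipase D, gave -2.85, -2.55, -2.62 and -2.34 in WT and -3.04, -3.48, -2.89 and -3.33 in KO. The genotypes were separated by a small gap, and the log2 fold change was -0.59 (standard error 0.15, 95% interval -0.94 to -0.24, limma adjusted p = 0.159), just past the 1.5-fold limit. The probe was dim, and under normexp background correction the log2 fold change was -0.11. Mice with the same replicate number shared a column of the slide, and with this number as a block *Gdpd1* was not called (limma adjusted p = 0.223). *Pnpla7*, a lysophospholipase that acts on lysophosphatidylcholine, gave 5.44, 5.30, 5.28 and 5.39 in WT and 5.80, 5.67, 5.70 and 5.72 in KO. All KO livers lay above all WT livers with little spread in either genotype, and the log2 fold change was 0.37 (standard error 0.07, 95% interval 0.21 to 0.53, limma adjusted p = 0.0742), a fold of 1.29. Of the 49 genes tested, *Pnpla7* had the lowest adjusted p without passing the fold limit.

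**Figure D4:**
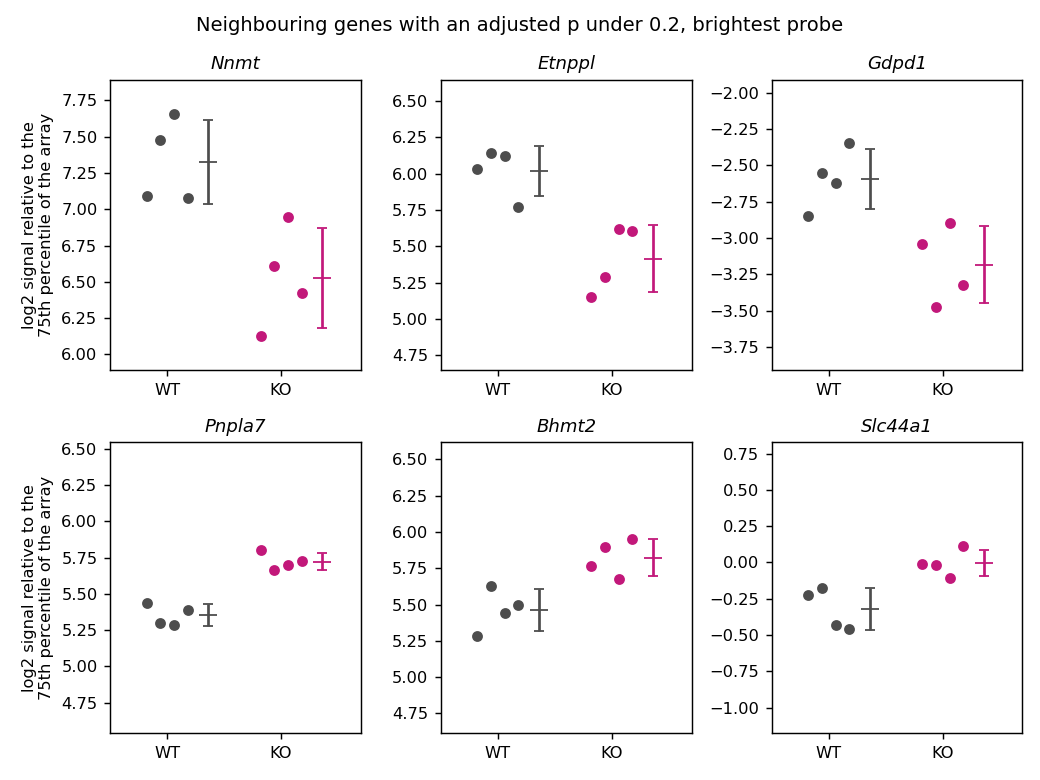
Log2 signal minus that of the array's 75th percentile (vertical axis, a range of 2.0 in every panel) of the brightest probe of 6 neighboring genes, in 4 WT (gray) and 4 KO (magenta) livers. They are the 6 of 49 tested with a limma adjusted p under 0.2, against 4.33% of all genes. The genes were picked by this p, so the separation of their points is no further evidence. Points are mice, and the bar beside them is the mean with the SD. KO livers lie below WT livers for *Nnmt*, *Etnppl* and *Gdpd1*, which passed the fold limit, and above them for *Pnpla7*, *Bhmt2* and *Slc44a1*, which did not.

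The calls of the 3 lower genes, and the adjusted p under 0.2 of 2 of the higher ones, were lost in most fits that left out 1 array. Each such fit also has fewer mice, and the part of this in the lost calls was not tested. With 1 array left out in turn, *Nnmt* was no longer called without WT replicate 2 or 3 or without KO replicate 1, 2 or 4, *Etnppl* without WT replicate 1, 2 or 3 or KO replicate 1 or 2, and *Gdpd1* without WT replicate 2, 3 or 4 or KO replicate 1, 2 or 4. Their log2 fold changes over these 8 fits lay between -0.94 and -0.67, between -0.68 and -0.51, and between -0.69 and -0.49. The limma adjusted p of *Slc44a1* was above 0.2 in 8 of the 8 fits (0.222 to 0.392), that of *Bhmt2* in 7 of 8 (0.179 to 0.354), and that of *Pnpla7* in 0 of 8 (0.105 to 0.198). For the 10 genes of PC and PE synthesis, the count called was 0 in each of these fits.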

How the data were processed

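Liver RNA of 4 *Agpat3* WT and 4 *Agpat3* KO mice, separate animals, was labeled with Cy3 and hybridized to 1 Agilent array each. The authors deposited scanner files from Feature Extraction (version 10.7.1.1), in which the processed signal is a linear fluorescence intensity after background correction, and a table of log2 values. The deposited log2 values equal the log2 intensity minus the 75th percentile of the array, within 0.01 for at least 99.9% of probes.

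From the intensities, control and outlier spots were left out, spots of a probe averaged, and log2 signals set relative to the 75th percentile (261.3 to 308.6 intensity units, background 27 to 32). No spot was saturated. Arrays have no depth, and their number limits the precision. Tested were 29069 of 56605 probes, those well above background on every array of 1 genotype or both, with limma (version 3.58.1, lmFit and eBayes, two-sided) under R 4.3.3 and the Benjamini-Hochberg adjustment. Symbols came from RefSeq (GRCm38.p6) through transcript accessions, which named 32994 probes, and the array design names another build, so probes have no coordinates here. On simulated data (29050 probes, 200 changed), 71.0% were recovered at a log2 change of 0.75 and 94.5% at 1.5, 14.46% and 13.7% of the calls were false, and 0 were called with none changed.

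The thresholds follow the legend of the volcano plot of the study, which does not say whether p is adjusted. The 10 genes and all lists were chosen with earlier results of these data known. By rule, the text names all 10 genes, the called genes and the 2 largest changes of each other list, and *Agpat3*; most uncalled genes of the marker, zonation and ether lists are given as counts or ranges only. The defining and undetected cell markers, *Cyp2f2*, *Mat1a*, *Gnmt*, *Pnpla7*, *Pcyt1b* and the *Pisd* copies are named beyond this rule or after their values were seen. Alternatives were normexp (offset 50, on the median spot signal), quantile and median scaling, the deposited values, other filters, outlier spots kept, eBayes options, a replicate block, gene means, each array left out, other thresholds and an unpaired t-test. Figures were drawn with matplotlib 3.10.9.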

Additional observations from a re-analysis of the deposited data

Results flagged for a closer look

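Of 94 groups of 4 arrays examined, 3 held 1 array that lay apart from the other 3, where chance alone gives about 1 in 20. The fourth WT liver gave 8.2435 for *Pcyt2*, against 8.1396 to 8.1571 in the other WT livers, and was still below every KO liver. The third WT liver gave 3.6824 for the dimmer probe of *Agpat3*, against 3.5604 to 3.5793. The second KO liver gave -2.5071 for *Pcyt1b*, against -6.1723 to -5.8613 in the other KO livers, and it was the only 1 of the 8 arrays on which this probe was well above background.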

How the results depend on the processing

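None of the 10 genes of PC and PE synthesis was called under any of the 23 alternatives. The sign of the change was kept in all 18 alternative fits for 7 of them, and turned in some fits for *Chka* (-0.02 to 0.18), *Cept1* (-0.07 to 0.05) and *Pemt* (-0.04 to 0.07). The interval lay within 1.5-fold for 9 or 10 genes in every fit, with *Etnk2* the exception in 8 fits (upper bounds 1.51- to 1.60-fold). The log2 fold change of *Pcyt2* lay between 0.14 and 0.25. Of the other pathway genes, the number called lower was 0 with no filter on dim probes, where more probes are tested, and 0 at an adjusted p under 0.05. It was 1 with the unpaired t-test after adjustment (*Etnppl*), and 0 to 3 with 1 array left out. At an unadjusted p under 0.2 from limma and a fold over 1.5 it was 4, with *Flvcr2* added, and no share over all genes was counted at that cut. The number called higher was 3 with no minimum fold change (*Bhmt2*, *Pnpla7* and *Slc44a1*). *Gdpd1* was also lost under normexp (-0.11), for which the cause was not tested. Over all probes, 273 were called higher and 211 lower, against 180 and 65 under normexp, 122 and 131 without the filter, 255 and 271 with median scaling, 208 and 126 with the stricter filter, and 152 to 334 and 98 to 276 with 1 array left out. The replicate number is also the column of the slide. Samples of the same number were not taken as pairs, since the deviations of 1 pair did not correlate positively (0.331, -0.108, 0.104 and 0.319). For WT replicates 1, 3 and 4, however, the KO liver with the best correlation had the same number, and for WT replicate 2 it was KO replicate 3. An effect of the column is thus not excluded. With a replicate block 327 probes were higher and 265 lower, *Pcyt2* stayed at 0.19 (limma adjusted p = 0.252), and *Gdpd1* at -0.59 (limma adjusted p = 0.223) was no longer called. The number of arrays, 4 per genotype, and for dim probes the signal over background limit what could be seen.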
